A study of Homo sapiens with 8 samples.

Results

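The library of Kyse510 cells treated with SP2509 was compared with the library of cells treated with vehicle, to describe which genes and programmes differed after chemical inhibition of LSD1. Of 31582 genes in the table of inhibitor libraries, the 13342 with an FPKM of at least 1 in either of these libraries were compared (34164 genes are listed in the whole series). The minimum passed 361 genes that reached only 1 to 1.1 FPKM, and left out 348 genes at 0.9 to 1 FPKM. Kyse510 is an established human cell line of esophageal squamous cell carcinoma. The cells received DMSO as vehicle or SP2509 at 7 µM, an inhibitor of LSD1, for 2 days before whole RNA was sequenced. Other libraries of the series were cells given the G9a inhibitor UNC0642 (7 µM), cells given both inhibitors (the same doses were assumed), and stable, puromycin-selected Kyse510 lines that carry a doxycycline-inducible short hairpin RNA against LSD1 or G9a, each without and with doxycycline for 2 days. There are 8 libraries in all and 1 library per condition, so no difference has a replicate check and no p-value is given. The uninduced and induced libraries of a line share its hairpin vector and selection, and the labels give neither for the inhibitor libraries.

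LSD1, encoded by KDM1A, removes methyl groups from lysine 4 of histone H3 as part of complexes with CoREST and the histone deacetylases HDAC1 and HDAC2, and is known mainly for keeping enhancers and neuronal genes silent. SP2509 binds LSD1 reversibly. Squamous epithelium of the esophagus is built on a basal layer that expresses the factors TP63 and SOX2, keratins and the integrins and laminins that fix it to the basement membrane, and wounded or stressed squamous cells are known to switch on AP-1 factors, keratin 17 and secreted cytokines.

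The values are FPKM, which is a count of sequenced fragments divided by transcript length and library size, as the authors deposited them. In the vehicle library 12345 genes reached 1 FPKM, and in the SP2509 library 11568. Among the 5739 genes of at least 5 FPKM in both libraries the median log2 ratio of FPKM + 1 was -0.09, and this median was subtracted from every log2 ratio of SP2509 to vehicle. Ratios in the other pairs of libraries were centred in the same way on their own medians, 0.03 for SP2509 added to UNC0642 and 0.11 for the shLSD1 line. A gene was called higher or lower when its centred ratio reached 1.3-fold and the 95% exact binomial (Clopper-Pearson) interval of its recovered reads excluded no change. These intervals cover counting error only. The libraries held 15662035 (vehicle) and 17804295 (SP2509) reads assigned to genes, as recovered from the values.

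KDM1A itself stood at 40.7 FPKM with vehicle and 36.2 with SP2509, a centred log2 ratio of -0.07 (95% interval -0.14 to 0.00), and was not called. This is a level of RNA and does not measure inhibition of the enzyme. Of 21 tested genes for the complex and its partners, 2 were called higher and 8 lower, against 21.5% and 32.4% of all genes tested. Its deacetylases were among the lower ones, with HDAC1 at 57.7 and 28.4 FPKM (log2 -0.90) and HDAC2 at 17.2 and 8.65. The nucleosome remodeller CHD4 went from 56.2 to 18.7 FPKM (log2 -1.44), while HMG20B, a DNA-bending subunit of the CoREST complex, went from 13.6 to 33.6 (log2 1.34). Of 29 neuronal genes known to be silenced through REST, which recruits LSD1, 4 reached the minimum and only the neurofilament gene NEFL was called higher (4.57 and 7.78 FPKM).

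Both libraries had the markers of squamous epithelium. The 8 markers summed to 766 FPKM with vehicle and 1266 with SP2509, led by KRT5 (427 and 734 FPKM) and TP63 (79.1 and 127). The desmosomal plaque gene PKP1 stayed under the minimum in both. Markers of simple epithelium summed to 542 and 622 FPKM. The 6 mesenchymal markers summed to 3.40 and 6.96 FPKM, and the endothelial marker CDH5 stood at 3.28 and 4.43. The 3 leukocyte markers in the table summed to 0.271 and 0.0365 FPKM, with PTPRC at 0 and 0.0067. In bulk RNA, fewer cells of a type and less RNA per cell cannot be told apart.

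Of the 13342 genes, 2865 (21.5%) were called higher and 4325 (32.4%) lower. At least 2-fold differences were found for 1064 genes higher (7.97%) and 1268 lower (9.5%). The balance depended on the scaling: 39.8% of calls were higher with the centring used here, 32.5% with none (2400 higher, 4979 lower), 49.9% when centred on the median of all genes tested (3551 and 3563) and 56.2% with TMM scaling (4010 and 3123). The other scalings place the shift at -0.21 (all genes) and -0.28 (TMM) on the log2 scale. Small list medians, between about -0.18 and 0.09, therefore change sign with the scaling, and the accounts that follow name those.

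**Figure D1:**
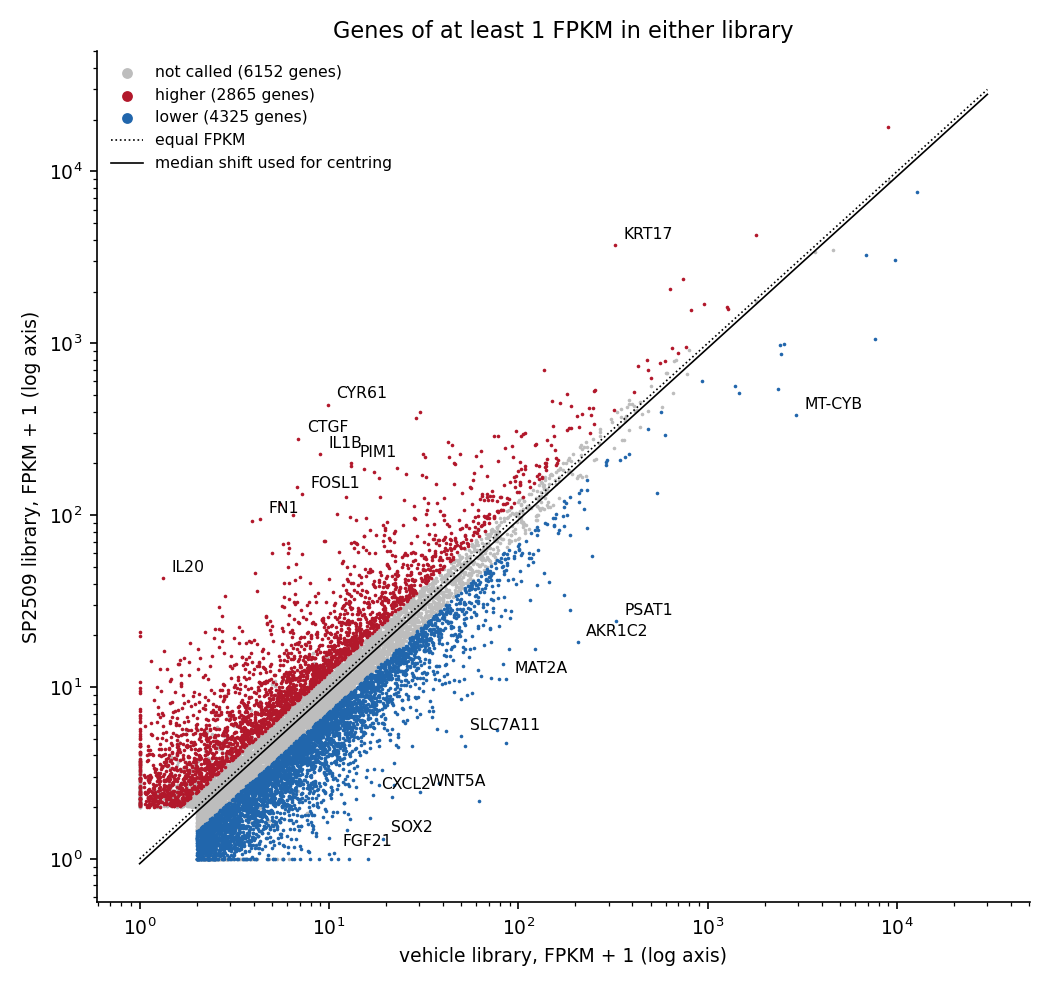
FPKM + 1 of 13342 genes in the vehicle library (x axis, log scale) against the SP2509 library (y axis, log scale), with genes called higher in red (2865), lower in blue (4325) and not called in grey. The solid line of the median shift lies just under the dotted line of equal FPKM, and CYR61, CTGF and KRT17 stand far above it while PSAT1, AKR1C2 and MT-CYB stand far below.

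The largest differences upward were in secreted matrix proteins, cytokines and immediate early genes. CYR61, a matricellular protein gene, stood at 8.89 FPKM with vehicle and 439 with SP2509 (342 and 19172 reads), a centred log2 ratio of 5.57 (95% interval 5.43 to 5.71). CTGF, its family member, stood at 5.90 and 277 FPKM (log2 5.43). Others of the 12 with the largest ratios, among protein-coding genes outside the ER stress genes, were IL20 (log2 5.12), IL1B (4.74), the prostaglandin E2 receptor PTGER4 (4.65), fibronectin FN1 (4.55), endothelin EDN1 (4.52), DUSP1 (4.49), FOSL1 (4.30), the kinase PIM1 (4.02) and DUSP5 (3.98). IL20 rested on 8 reads with vehicle and 1176 with SP2509, and the other genes named on at least 143 reads in each library.

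By the same choice of genes, which leaves out an ER stress gene at -4.09, the largest differences downward were in a lineage factor, an enzyme of serine synthesis and a Wnt ligand. SOX2, a factor of squamous progenitors that is often amplified in this cancer, stood at 18.3 FPKM with vehicle and 0.313 with SP2509 (721 and 14 reads), a log2 ratio of -3.78 (95% interval -3.96 to -3.55). PSAT1, the enzyme, stood at 327 and 23.1 FPKM (log2 -3.67). WNT5A, a secreted Wnt ligand, stood at 29.3 and 1.44 (log2 -3.54). After these came AKR1C2 (-3.41), the hormone FGF21 (-3.20), the cystine transporter SLC7A11 (-3.17), ZNF302 (-2.98), the methionine adenosyltransferase MAT2A (-2.85), the mitochondrial cytochrome b gene MT-CYB (-2.84), PIGW (-2.83), the mitochondrial PEP carboxykinase PCK2 (-2.81) and the chemokine CXCL2 (-2.77). AKR1C2 shares long stretches of sequence with AKR1C1 and AKR1C3, so its reads may be split among them.

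Immediate early genes were nearly all higher. Of 27 tested, 24 were called higher and 1 lower, with a median log2 ratio of 2.10 where that of all genes tested was -0.11. Among the AP-1 subunits, which pair as Fos and Jun proteins and bind DNA together, FOSL1 stood at 6.19 FPKM with vehicle and 132 with SP2509, JUN at 21.9 and 187 (log2 3.13), JUNB at 41.5 and 266 (2.75) and FOS at 6.11 and 26.9 (2.07). JUND, the least inducible of the family, stood at 22.1 and 23.6 FPKM and was not called. MAFG, a small Maf protein that partners NRF2 as well as AP-1 factors, was the only member called lower (11 and 5.24). The other early transcription factors were all called higher, with KLF6 at 4.78 and 39.4 FPKM (log2 2.90), MYC at 137 and 697 (2.44) and EGR1 at 3.56 and 12 (1.6). Among early genes that do not encode such factors, SGK1, a kinase, stood at 5.71 and 50.8 FPKM (log2 3.04) and ZFP36, which destabilises cytokine mRNAs, at 10.8 and 51.8 (2.26).

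Genes that damp the ERK pathway differed by role. The dual-specificity phosphatases, which remove phosphate from MAP kinases, had 7 of 9 tested called higher and none lower (median log2 2.85). DUSP1 stood at 4.52 and 115 FPKM, DUSP5 at 12 and 191, DUSP4 at 5.08 and 48.9 (log2 3.13) and DUSP6 at 1.47 and 18.3 (3.06). DUSP7 and DUSP16 were not called. The adaptors and other targets of ERK had 4 of 10 called higher and 1 lower (median 0.26): EPHA2, an ephrin receptor, stood at 24.6 and 173 FPKM (2.86), and the cyclin gene CCND1 at 99.6 and 72.3 without a call. In the EGF receptor family the ligands had 5 of 7 called higher (TGFA 3.87 and 20.6 FPKM, log2 2.24) and 1 lower (BTC 3.54 and 1.56), and EGFR stood at 37.1 and 70.3 (1.0). ERBB3 (7.94 and 2.40, log2 -1.30) and ERBB2 (6.79 and 4.21) were called lower, and ERRFI1, a feedback inhibitor of EGFR, stood at 30.1 and 170 (2.55).

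A larger share of the promoters of genes that were higher held AP-1 and serum response (CArG) letters. RefSeq promoters (GRCh38.p14, 250 bases before to 50 after the start site) matched 8723 of 10657 tested protein-coding genes, and both strands were searched. TGACTCA, the AP-1 site, was in 49 of the 562 promoters of genes at least 2-fold higher (8.72%), in 3.06% of 687 at least 2-fold lower, in 2.99% of all 8723 and in 4.92% of all 27305 RefSeq promoters. The CArG box, bound by SRF, was in 3.20%, 0.582%, 1.07% and 1.29%, in the same order. TGACGTCA, the cAMP response element (CRE), was in 4.63%, 2.33%, 3.57% and 1.98%. The median log2 ratio was 0.06 over the 261 genes with the AP-1 letters against -0.11 over those without, and 0.29 over the 93 genes with a CArG box. The first of these signs turns without centring. A match describes letters and not binding. The promoters below are shown because their genes were called higher and hold these letters, with the motif in capitals. They were chosen after the values were seen.
CXCL8 promoter (chr4:73740319-73740618, plus strand): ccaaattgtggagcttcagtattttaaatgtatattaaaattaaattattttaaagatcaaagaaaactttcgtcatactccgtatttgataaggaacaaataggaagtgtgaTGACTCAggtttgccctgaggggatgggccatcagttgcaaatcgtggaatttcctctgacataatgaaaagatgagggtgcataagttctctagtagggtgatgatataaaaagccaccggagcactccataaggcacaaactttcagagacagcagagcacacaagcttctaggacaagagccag
PLAUR promoter (chr19:43670120-43670419, minus strand): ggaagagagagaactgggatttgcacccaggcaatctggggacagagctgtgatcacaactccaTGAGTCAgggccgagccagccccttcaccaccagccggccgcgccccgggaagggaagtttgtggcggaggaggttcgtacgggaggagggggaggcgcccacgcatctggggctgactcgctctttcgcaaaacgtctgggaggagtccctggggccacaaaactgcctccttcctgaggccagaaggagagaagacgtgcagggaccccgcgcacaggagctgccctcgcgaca
IVL promoter (chr1:152908296-152908595, plus strand): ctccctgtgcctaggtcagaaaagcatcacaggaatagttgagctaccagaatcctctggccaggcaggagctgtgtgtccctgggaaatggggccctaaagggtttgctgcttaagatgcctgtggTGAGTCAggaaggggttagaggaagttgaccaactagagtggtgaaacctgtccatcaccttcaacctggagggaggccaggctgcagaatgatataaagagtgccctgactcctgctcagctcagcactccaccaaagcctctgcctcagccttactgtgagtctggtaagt
SRF promoter (chr6:43171019-43171318, plus strand): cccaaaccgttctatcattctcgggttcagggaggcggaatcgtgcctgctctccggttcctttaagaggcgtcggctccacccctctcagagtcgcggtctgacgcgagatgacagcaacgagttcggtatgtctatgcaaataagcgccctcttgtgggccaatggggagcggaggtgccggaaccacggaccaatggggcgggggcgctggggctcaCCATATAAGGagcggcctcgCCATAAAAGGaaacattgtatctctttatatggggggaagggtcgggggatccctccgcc
ACTG1 promoter (chr17:81512750-81513049, minus strand): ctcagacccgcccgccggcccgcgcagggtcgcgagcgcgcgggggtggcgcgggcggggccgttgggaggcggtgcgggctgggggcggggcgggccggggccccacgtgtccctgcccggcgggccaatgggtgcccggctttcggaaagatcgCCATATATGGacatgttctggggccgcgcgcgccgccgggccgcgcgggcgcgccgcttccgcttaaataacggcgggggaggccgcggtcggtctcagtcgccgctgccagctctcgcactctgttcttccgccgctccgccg
DUSP1 promoter (chr5:172771146-172771445, minus strand): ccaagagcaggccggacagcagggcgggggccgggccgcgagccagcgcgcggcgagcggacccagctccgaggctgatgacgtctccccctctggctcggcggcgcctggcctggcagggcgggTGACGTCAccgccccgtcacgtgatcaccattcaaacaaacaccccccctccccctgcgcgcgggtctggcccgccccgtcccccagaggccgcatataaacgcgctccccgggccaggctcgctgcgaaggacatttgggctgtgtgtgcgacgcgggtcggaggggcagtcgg
FN1 promoter (chr2:215436019-215436318, minus strand): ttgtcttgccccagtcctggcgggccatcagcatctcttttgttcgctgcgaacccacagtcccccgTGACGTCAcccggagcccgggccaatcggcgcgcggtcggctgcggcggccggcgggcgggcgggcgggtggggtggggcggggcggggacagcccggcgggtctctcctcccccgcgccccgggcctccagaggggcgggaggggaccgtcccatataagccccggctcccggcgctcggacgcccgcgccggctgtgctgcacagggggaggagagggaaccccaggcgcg
In the first 3 the capitals are the AP-1 site (TGACTCA, or TGAGTCA where it lies on the other strand), which starts at -137, -186 and -123 relative to the start sites of CXCL8, PLAUR and IVL. In SRF and ACTG1 they are CArG boxes, starting at -30 and -10 in SRF and at -94 in ACTG1. In DUSP1 and FN1 they are the CRE, starting at -125 and -183. These genes encode a neutrophil chemokine, the urokinase receptor, a cornified envelope precursor, the factor that binds CArG boxes, cytoplasmic actin, a phosphatase of MAP kinases and fibronectin.

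Inflammatory genes under NF-kB were mostly higher, with the CXCL1, CXCL2 and CXCL3 cluster as the exception. Of 17 tested cytokines and chemokines 14 were called higher and 3 lower (median log2 1.95). IL1B stood at 8.0 FPKM with vehicle and 224 with SP2509, IL1A at 31.0 and 217 (log2 2.87), CXCL8 at 29.1 and 397 (3.82) and IL6 at 0.278 and 11.8 (3.42). CSF2 had no read with vehicle and stood at 6.28 FPKM (88 reads) with SP2509. Against a floor of 3 reads in the vehicle library CSF2 was at least 25.8-fold higher in plain FPKM. That fold is not centred and is not of FPKM + 1, so it cannot be set beside the log2 ratios given here. The median of the cytokines and chemokines is the same with this gene at its bound. CXCL1, which attracts neutrophils through the same receptor family as CXCL8, stood at 88.9 and 24.3 FPKM (log2 -1.74), and CXCL3 at 5.47 and 0.608 (-1.91). Of 11 feedback genes of NF-kB 8 were called higher and 1 lower, led by the ubiquitin-editing enzyme TNFAIP3 (27.9 and 365 FPKM, log2 3.76), with NFKBIA at 93.6 and 167. NFKB1 did not differ by the call (22.5 and 22.2).

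Prostaglandin genes, a list added after the values were seen, split by step. The inducible cyclooxygenase PTGS2 stood at 11.3 FPKM with vehicle and 127 with SP2509 (log2 3.47) and the receptor PTGER4 at 2.93 and 91.6. The constitutive cyclooxygenase PTGS1 (11.9 and 10.4) and the terminal synthase PTGES (30.4 and 27.3) were not called, and PTGES2 (21.9 and 8.98) was called lower. Metallothionein MT2A stood at 124 and 258 FPKM (log2 1.15), the vitamin D hydroxylase CYP24A1 at 3.99 and 59.1 (3.69), and TIPARP, a target of the aryl hydrocarbon receptor, at 10 and 100 (3.29), with CYP1A1 at 1.73 and 20.2 (3.05) and ALDH3A1, another target, at 34.8 and 11 (-1.49).

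Genes that tie squamous cells to the basement membrane were mostly higher, and those that tie them to each other were mixed. Of 18 hemidesmosome, integrin and laminin genes 15 were called higher and 1 lower (median log2 1.31). ITGA2, a collagen receptor subunit, stood at 12 FPKM with vehicle and 96.3 with SP2509 (log2 3.0; 95% interval 2.93 to 3.07), COL17A1 at 12.9 and 92.3 (2.84) and ITGA5, the fibronectin receptor subunit, at 3.66 and 24.8 (2.56). LAMA5 was called lower (67.6 and 47.6). Among 9 desmosome genes 5 were called higher and 1 lower (median 0.50), with PKP2 at 8.64 and 30.1 (1.79), PKP3 at 25.1 and 15.4 (-0.57) and the adhesion molecules DSG3 and DSC3 not called.

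The actin cytoskeleton followed the same direction. In a list added after the values were seen, 18 of 22 genes for filaments and crosslinkers were called higher and none lower (median log2 1.12). ACTG1 stood at 744 FPKM with vehicle and 2353 with SP2509 (log2 1.75), ACTB at 816 and 1560 (1.03), MYH9 at 149 and 464 (1.73) and the bundling protein LCP1 at 0.454 and 9.89 (3.0). Of 19 focal adhesion genes and SRF cofactors 12 were called higher and 5 lower, with vinculin VCL at 27.1 and 94.9 (1.87), NEDD9 at 3.16 and 35.1 (3.21), and talin TLN1 at 29.0 and 19.5 (-0.46). SRF itself stood at 13.1 and 34.7 (1.44).

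Matrix, protease and YAP target genes were mostly higher. Of 10 proteases and inhibitors 9 were called higher and none lower (median log2 1.41), including PLAUR (1.73 FPKM with vehicle and 24.9 with SP2509, log2 3.34) and its ligand PLAU (19.8 and 72.6, log2 1.92). Of 12 mesenchymal factors and cytoskeletal genes 9 were called higher and none lower; SNAI2, a repressor of epithelial genes, stood at 12.9 and 67.9 FPKM (2.41), yet the epithelial cadherin CDH1, listed with them, was higher too (65.2 and 122, log2 0.98) and the neural cadherin CDH2 was not called (4.53 and 4.55). Of 20 YAP and TEAD genes 14 were called higher and 2 lower (median 0.90), with ANKRD1 at 1.61 and 28.2 (3.58) and F3, tissue factor, at 43.4 and 256 (2.63). The coactivator YAP1 was itself called lower (68.2 and 45.7, log2 -0.47), as was AJUBA (50.7 and 10.1, log2 -2.13). Among TGF-beta family ligands, receptors and inhibitors 9 of 12 were called higher and 1 lower, led by INHBA (0.154 and 13.1, log2 3.70) and TGFB2 (5.79 and 30.3, log2 2.30). Of 10 targets of TGF-beta and BMP signalling 4 were called higher and 4 lower, where all genes gave 21.5% and 32.4%. Their median was -0.08, a sign that turns with the scaling. Among these targets ID1 (344 and 207) and ID3 (204 and 376) went opposite ways.

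Keratins were higher, and the squamous transcription factors were mixed. Of 16 keratin genes 12 were called higher and 1 lower (median log2 0.89), and tested keratins took 0.683% of reads with vehicle and 1.79% with SP2509. KRT17, the keratin of wounded epithelium, stood at 324 FPKM with vehicle and 3716 with SP2509 (log2 3.61), KRT80 at 12.5 and 68.9 (2.47) and KRT16 at 3.25 and 12.3 (1.74). KRT17, KRT6A, KRT6B and KRT16 have near-identical copies or pseudogenes, so their reads may be shared. KRT4, a keratin of the esophageal suprabasal layer, was called lower (5.03 and 1.09, log2 -1.44). Cornified envelope precursors had 4 of 6 called higher, with IVL at 0.297 and 8.45 FPKM (2.96) and SPRR1A at 0.236 and 8.95 (3.10). Of 20 squamous regulators 6 were called higher and 6 lower, where 21.5% of all genes were called higher and 32.4% lower. Their median was 0.02, a sign that turns without centring. TP63 (log2 0.77) and KLF4 (4.82 and 10.9 FPKM, log2 1.13) were higher, while SOX2, GRHL2 (19.2 and 7.31, log2 -1.19) and TFAP2C (23.7 and 13.6, log2 -0.66) were lower. The Notch ligands parted, JAG1 at 12.5 and 63.1 (2.34) and JAG2 at 19.5 and 7.2 (-1.23), and the Wnt ligands too, WNT7A at 0.878 and 6.76 (2.14) and WNT10A at 18.5 and 4.76 (-1.66).

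Hypoxia targets and genes of glycolysis were more often called higher than lower. Of 21 HIF targets 15 were called higher and 3 lower (median log2 1.21). CA9, a carbonic anhydrase, stood at 12.1 FPKM with vehicle and 68.2 with SP2509 (log2 2.50), the histone demethylase KDM3A at 6.94 and 39.5 (2.45), BNIP3 at 23.8 and 122 (2.41) and NDRG1 at 45.4 and 197 (2.19). VEGFA, a HIF target that is also induced by other stresses, was called lower (26.0 and 16.6, log2 -0.52), as were STC2 and HILPDA. Of 5 genes for hypoxia factors and their regulators 2 were called higher and 2 lower. EPAS1, a paralog of HIF1A, stood at 30.3 and 50.1 FPKM (0.80) and ARNT, the partner subunit, at 14.3 and 20.2 FPKM. HIF1A stood at 123 and 97.8 FPKM without a call, and VHL, which marks its protein for degradation, at 18.9 and 10.1 (-0.75). HIF1A is known to be controlled mainly at the protein, which was not measured. Glucose uptake and the hexose steps of glycolysis had 11 of 12 genes called higher and none lower (median 0.99), led by hexokinase HK2 (35.9 and 150, log2 2.13). The triose steps and lactate genes had 6 of 10 higher and 2 lower, with LDHA at 91.7 and 251 (1.54) and LDHB at 288 and 195 (-0.47).

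**Figure D2:**
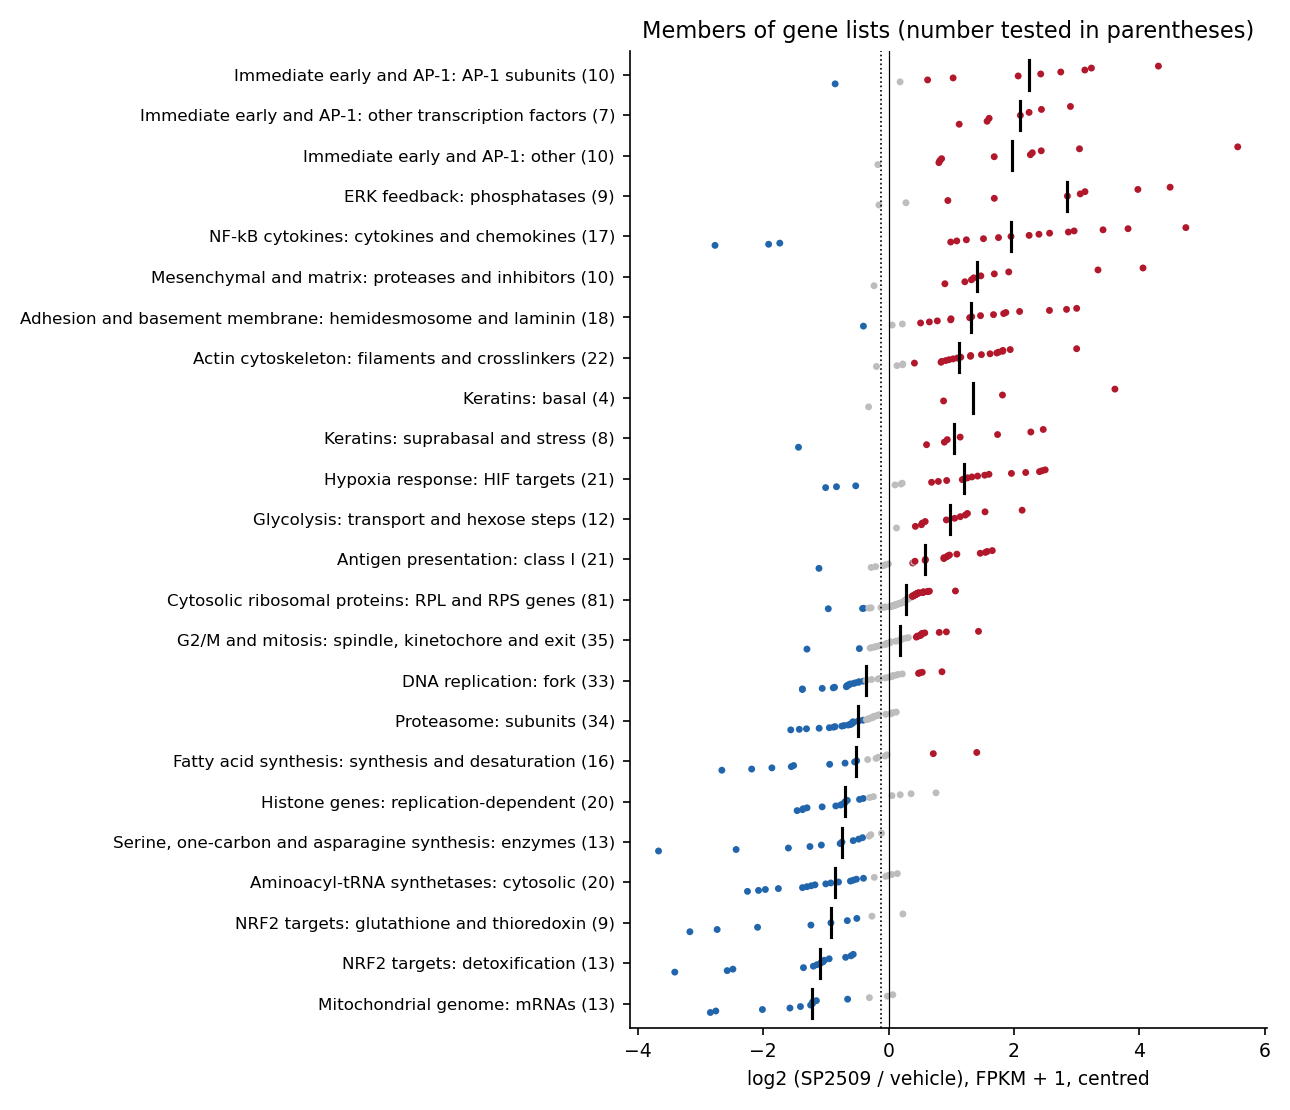
Centred log2 ratio of SP2509 to vehicle (x axis, FPKM + 1) for every tested member of 24 gene lists, 1 point a gene, red when called higher, blue when called lower and grey when not called. Black bars are list medians and the dotted line is the median of all genes tested (-0.11); the phosphatases (median 2.85) and AP-1 subunits (2.25) lie farthest right and the mitochondrial mRNAs (-1.22) farthest left.

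Targets of NRF2, the factor of the antioxidant response, were lower almost throughout. Of 31 tested 26 were called lower and 1 higher (median log2 -1.03). All 13 detoxification genes were called lower, from AKR1C2 (205 FPKM with vehicle and 17.2 with SP2509, log2 -3.41) through AKR1B10 (70.9 and 10.3, log2 -2.57) and NQO1 (161 and 77.5, log2 -0.95) to AKR1B1 (38.6 and 24.1, log2 -0.56). In glutathione synthesis SLC7A11, the cystine carrier, stood at 48.9 and 4.20, GCLC, the rate-limiting ligase, at 77.9 and 10.1 (log2 -2.73; 95% interval -2.81 to -2.66) and GCLM at 22.2 and 4.09 (-2.09). Thioredoxin reductase TXNRD1 was not called (133 and 147). The NADPH enzymes ME1 (84.5 and 27, log2 -1.52) and PGD (187 and 75.6, log2 -1.20) were lower. NFE2L2, which encodes NRF2, was the member called higher (43.2 and 53.9, log2 0.41), and its inhibitor KEAP1 was not called (9.54 and 6.69).

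Of 16 genes for fatty acid synthesis and desaturation 9 were called lower and 2 higher (median log2 -0.53), where 32.4% of all genes were called lower and 21.5% higher. FASN stood at 187 FPKM with vehicle and 26.9 with SP2509 (log2 -2.66), the elongase ELOVL6 at 9.21 and 1.63 (-1.86), SREBF1, their regulator, at 51.4 and 15.7 (-1.55) and SCD at 598 and 291 (-0.94). Cholesterol genes lay nearer to all genes, with 12 of 28 called lower and 2 higher (median log2 -0.32, and -0.13 with TMM scaling): LSS, the cyclase that makes lanosterol, stood at 18 and 5.2 (-1.52), SQLE at 124 and 93 without a call, and INSIG2, which retains the sterol sensor in the ER, at 6.61 and 19.6 (1.53). Iron genes were mixed, with the transferrin receptor TFRC at 179 and 504 (1.58) and the ferritin light chain FTL at 6826 and 3259 (-0.97).

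Genes for making, carrying and charging amino acids were lower. In serine, one-carbon and asparagine synthesis 10 of 13 were called lower and none higher (median log2 -0.74), with PSPH at 18.0 FPKM with vehicle and 2.30 with SP2509 (log2 -2.43) and SHMT2 at 69.5 and 20.8 (-1.60) beside PSAT1. Of 20 cytosolic aminoacyl-tRNA synthetases 15 were called lower and none higher (median -0.86), led by AARS (173 and 33.2, log2 -2.25) and WARS (47.5 and 9.78, log2 -2.08). Of 12 amino acid transporters 10 were called lower and 2 higher, with SLC7A5 at 539 and 133 (-1.92) and SLC38A2, a sodium-coupled carrier, at 140 and 210 (0.67). ATF4, the factor known to drive many of these genes, stood at 255 and 210 FPKM and was not called. For reference, 25 of 34 genes of the ER stress response were called lower and 2 higher (median -1.10).

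**Figure D3:**
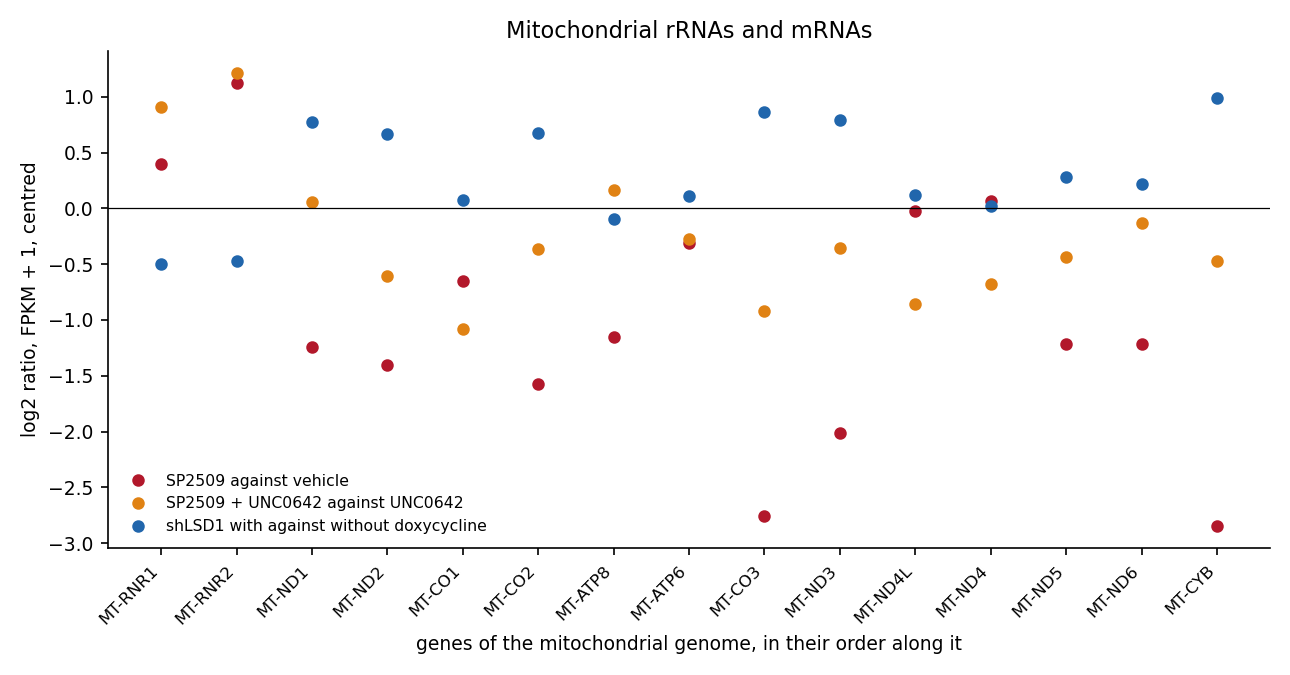
Centred log2 ratio (y axis) of the 2 ribosomal RNAs and 13 mRNAs of the mitochondrial genome in their order along it (x axis), for SP2509 against vehicle (red), SP2509 added to UNC0642 (orange) and the shLSD1 line with against without doxycycline (blue). With SP2509 alone the rRNAs lie above 0 and all mRNAs but MT-ND4 below it.

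The mitochondrial genome, which is transcribed as long precursors and then cut into rRNAs, mRNAs and tRNAs, had more rRNA and less mRNA with SP2509. Its rRNAs took 1.51% of reads with vehicle and 2.99% with SP2509, and its mRNAs 6.33% and 3.48%. MT-RNR2, the large rRNA, stood at 8915 and 18225 FPKM (log2 1.13) and MT-RNR1 at 1283 and 1584 (0.40). Of 13 mRNAs 10 were called lower and none higher (median -1.22). They ranged from MT-CYB (2931 and 382, log2 -2.84) and MT-CO3 (7669 and 1062, log2 -2.76) to MT-ND4 (9016 and 8846, log2 0.07), which is bicistronic with MT-ND4L (-0.02). MT-ATP8 and MT-ATP6, which also overlap, differed more, at -1.15 (65 reads with vehicle and 29 with SP2509) and -0.31. The tRNA gene MT-TP stood at 1795 and 4289 (1.35). Nuclear copies of mitochondrial sequence may share these reads, and the plot of mitochondrial genes shows each ratio in genome order.

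Nuclear genes of the respiratory chain and ribosomes had smaller ratios. Of 68 nuclear genes for the respiratory chain 18 were called lower and 2 higher (median log2 -0.19), a share of lower calls under that of all genes. Mitochondrial ribosomal proteins had 27 of 73 lower, near the 32.4% of all genes, and 6 higher (median -0.26, and -0.08 with TMM scaling). Cytosolic ribosomal proteins had 25 of 81 higher, where 21.5% of all genes were, and 3 lower (median 0.28). Both lists were added after the values were seen. Nucleolar factors of ribosome assembly had 15 of 29 lower and 3 higher (median -0.38), with NOP56 at 40.2 and 12.4 FPKM (-1.53). Of 34 proteasome subunits 19 were called lower and none higher (median -0.48), from PSMB2 (44.3 and 13.4, log2 -1.56) to PSMD4 (77.7 and 79.2, log2 0.12). Lysosomal genes had 14 of 44 higher and 3 lower, with the sterol carrier NPC2 at 35.1 and 88.1 (1.40).

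Cell cycle genes differed in part by phase. Of 51 DNA replication genes 22 were called lower and 5 higher (median log2 -0.30), where 32.4% of all genes were called lower and 21.5% higher. The 33 fork genes had 16 lower and 4 higher (median -0.36), with PCNA, the sliding clamp, at 60.2 FPKM with vehicle and 21.1 with SP2509 (log2 -1.38). The 18 licensing genes had 6 lower, near the share of all genes, and 1 higher (median -0.25, and -0.07 with TMM scaling). Among them MCM6 stood at 26.7 and 10.8 (-1.14) and CDT1, in the other direction, at 11.3 and 29.8 (1.42). Replication-dependent histones had 14 of 20 lower and none higher (median -0.69). Histone mRNAs lack poly(A) tails, most were at a low FPKM, and their copies may share reads. Of 51 mitotic genes 19 were called higher and 4 lower (median 0.18), with CDK1 at 21.3 and 44.3 (1.12) and ANLN, a cytokinesis scaffold that also binds actin, at 26.0 and 67.4 (1.43). The cyclin-dependent kinase inhibitor CDKN1A stood at 10.8 and 53 (2.29) and GADD45A at 30.4 and 226 (2.95), and of 11 p53 targets for cell cycle and feedback 7 were called higher and none lower, although MDM2, a canonical target, was not called (5.40 and 4.22). The 16 p53 targets for death, repair and metabolism had 5 called higher and 5 lower, the latter near the share of all genes. Their median was -0.08, a sign that turns with the scaling.

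Death genes differed in both directions. In the BCL2 family 6 of 14 were called higher and 3 lower, where 21.5% of all genes were called higher and 32.4% lower. The median log2 ratio of the family was -0.03, a sign that turns with the scaling. Both protective members MCL1 (101 FPKM with vehicle and 156 with SP2509, log2 0.72) and BCL2L1 (18.0 and 29.4, log2 0.77) and the killer PMAIP1 (22.2 and 30.1, log2 0.52) were higher. Among receptors and caspases 8 of 18 were higher and 5 lower: the TRAIL receptors TNFRSF10A (4.98 and 14.4, log2 1.46) and TNFRSF10B (35.2 and 59.6, log2 0.84) and the inhibitor BIRC3 (9.45 and 34.5, log2 1.86) were higher, and the adaptor FADD was lower (17.3 and 3.94, log2 -1.80).

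Chromatin and RNA-processing genes differed at single members in both directions. Of 55 chromatin enzymes 8 were called higher and 19 lower, where 21.5% of all genes were called higher and 32.4% lower. Their median log2 ratio was -0.11, that of all genes tested, and turns positive with TMM scaling. KDM6A, which removes methyl groups from lysine 27 of histone H3, stood at 12.4 FPKM with vehicle and 39.2 with SP2509 (log2 1.67) and HDAC9 at 1.29 and 7.45 (1.98). HEXIM1, which holds the elongation factor P-TEFb inactive, stood at 36.2 and 4.73 (-2.60), BRD2 at 46.2 and 18.9 (-1.16) and the acetyltransferase EP300 at 14.4 and 5.32 (-1.19). The G9a gene EHMT2 was not called (11.1 and 10.2). Of 20 SR splicing factors, a list added after the values were seen, 9 were called lower and 3 higher; SRSF1 stood at 81.7 and 12.7 (-2.50), and the kinases CLK1 (17.4 and 37.7, log2 1.16) and CLK4, which phosphorylate SR proteins, were higher. Zinc finger genes, a list added after the values were seen, had 145 of 303 called lower and 56 higher (median -0.34). The 100 on chromosome 19 had 35 lower, near the 32.4% of all genes, and 27 higher (median -0.06, positive with TMM scaling).

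Interferon-stimulated and antigen presentation genes were moderately higher. Of 33 interferon genes 18 were called higher and 1 lower (median log2 0.42), with the GTPase gene GBP1 at 6.18 FPKM with vehicle and 58.5 with SP2509 (log2 3.15) and ISG15 at 3.12 and 8.23 (1.26). Of 21 class I and natural killer ligand genes 14 were called higher and 1 lower (median 0.59): HLA-B stood at 15.9 and 46.1 (1.57), B2M at 108 and 192 (0.93) and ULBP2 at 13.7 and 42.4 (1.65), while ULBP1 was lower (5.22 and 1.70, log2 -1.11). HLA genes share sequence, so their reads may be split.

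The ratio differed by gene type, length and level. Long intergenic RNAs were lower (429 genes, median log2 -0.59) and took 0.424% of reads with vehicle and 0.284% with SP2509, and antisense RNAs were lower too (530 genes, -0.53), although use of strand in counting is not stated. Small nucleolar and small nuclear RNAs had medians of 0.70 and 0.84, but 22.1% and 13.0% of them were called higher, near or under the share of all genes, and these medians were smaller than their median counting half-widths (1.16 and 1.02). Among protein-coding genes the median went from -0.22 for spans under 3 kb to 0.14 above 300 kb, and single-exon genes stood at -0.46 with 51.2% called lower. The order by span was the other way with SP2509 added to UNC0642, at 0.07 under 3 kb and -0.47 above 300 kb. Single-exon genes stood at 0.07 in that pair. By level, genes averaging over 100 FPKM stood at 0.28. Nuclear chromosomes ranged only from -0.21 (chromosome 7) to 0.03 (chromosome 18). The lowest named non-coding genes were the pseudogene AC245100.3 (61.2 FPKM with vehicle and 1.18 with SP2509), DLGAP1-AS2 (37.0 and 1.75) and MIR205HG, host of a microRNA of squamous cells (51.1 and 3.53), and the highest were AC015712.7 (1.81 and 32.7), AC037198.2 (0.348 and 15.2) and RNU7-75P (3.09 and 45.3).

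Pairs of other libraries that share neither library with this comparison give a further look. When SP2509 was added to UNC0642, 23.7% of 13637 tested genes were called higher and 26.1% lower against UNC0642 alone. Tested in both were 868 of the genes at least 2-fold higher with SP2509. Of these, 383 (44.1%) were called higher again and 156 (18.0%) lower, where all shared genes gave 21.0% and 28.3%. Those 383 were 15% of the 2553 shared genes called higher in that pair. Of 1170 at least 2-fold lower, 441 (37.7%) were lower again and 209 (17.9%) higher. Across the 12178 shared genes, which are not independent replicates, Pearson's r was 0.20. Of the 12 genes with the largest ratios upward 9 were called higher again and none lower, among them CYR61 (30.5 FPKM with UNC0642 and 105 with both inhibitors) and FN1 (6.07 and 25.2); IL20 (3.53 and 3.25), IL1B (70.5 and 65.2) and PTGER4 (8.92 and 11.4) were not. Of the 12 largest downward 7 were lower again, including SOX2 (4.94 and 0.637), and 3 were higher: PSAT1 (80.1 and 217), FGF21 (0.469 and 11.4) and PCK2 (5.74 and 12.5).

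Doxycycline in the shLSD1 line, which induces silencing of LSD1, went largely the other way. No line without a hairpin against LSD1 or G9a was given doxycycline, so silencing and doxycycline itself cannot be told apart. Values given as on silencing are those of this pair. KDM1A in the shLSD1 line stood at 26.0 FPKM without doxycycline and 6.29 with it (log2 -2.00), and 14.7% of 12970 tested genes were called higher and 14.5% lower. The knockdown libraries were normalized in a separate table. Of 776 genes at least 2-fold higher with SP2509, 66 (8.51%) were called higher on silencing and 416 (53.6%) lower; of 1174 at least 2-fold lower, 400 (34.1%) were higher and 70 (5.96%) lower. The r across 11769 genes was -0.40, and across the 15 mitochondrial rRNAs and mRNAs -0.90. The mitochondrial difference was not particular to the shLSD1 line. Mitochondrial mRNAs took 6.15% of reads without doxycycline and 8.40% with it in the shLSD1 line, and 6.13% and 9.62% in the shG9a line. Mitochondrial rRNAs took 2.48% and 1.93% in the shLSD1 line, and 2.35% and 1.65% in the shG9a line. CYR61 stood at 56.9 FPKM without doxycycline and 5.58 with it, KRT17 at 1738 and 265, and SOX2 at 5.24 and 20.1. Of the 12 genes with the largest ratios upward with SP2509 11 were called lower on silencing, FN1 being the exception. HIF targets were called lower in 21 of 21 members (median log2 -1.87).

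**Figure D4:**
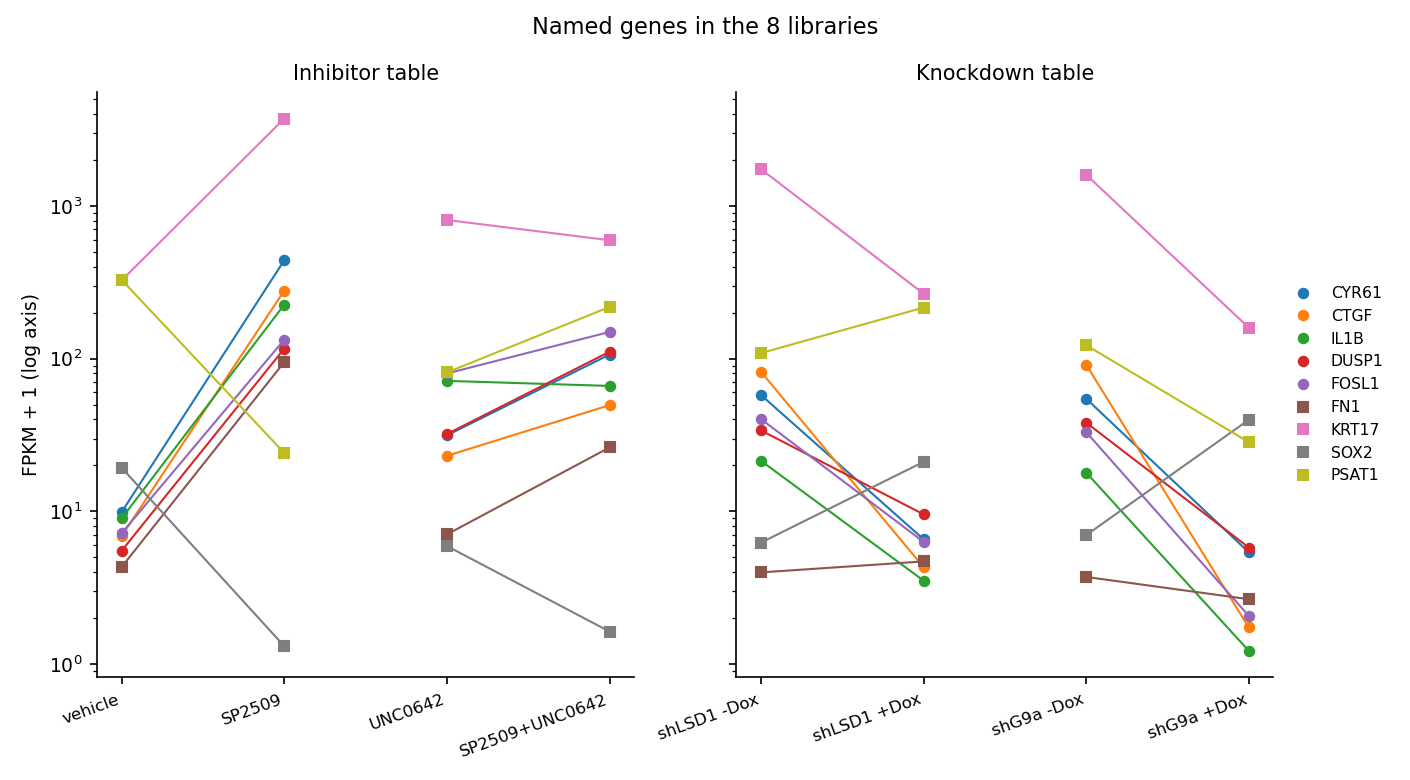
FPKM + 1 (y axis, log scale) of 9 named genes in the 4 inhibitor libraries and the 4 knockdown libraries (x axis), which were normalized in separate tables, with lines joining control and treated libraries. CYR61, CTGF and KRT17 are higher with SP2509 than with vehicle and lower with than without doxycycline in both hairpin lines.

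In the shG9a line the 12 genes with the largest ratios upward were all at a lower FPKM with than without doxycycline (CYR61 53.7 without and 4.4 with it). Of the 12 largest downward, 5 were at a higher FPKM with doxycycline in that line and 7 at a lower, against 11 and 1 in the shLSD1 line. SOX2 was higher in both lines (5.99 and 38.8 FPKM in the shG9a line), whereas PSAT1 went from 121 to 27.4 FPKM in the shG9a line and from 108 to 215 in the shLSD1 line. The level in the vehicle library also differed from that in uninduced cells: 11 of the 12 genes highest with SP2509 had less with vehicle than in both uninduced lines, and the 12 lowest had more, though these genes were chosen with the vehicle value. The part of the vehicle library in these differences was not tested. UNC0642 shares the vehicle library, so its values are only set beside these. All 12 genes highest with SP2509 were also above vehicle with UNC0642, and of the 12 lowest 11 were below it and 1 above. UNC0642 against vehicle had median log2 ratios of 1.96 for cytokines and chemokines, 1.71 for the phosphatases and 1.07 for HIF targets. NRF2 targets had -0.16 and mitochondrial mRNAs -0.23, where SP2509 gave -1.03 and -1.22. Other lower lists were lower with UNC0642 too. ER stress genes had -1.13 and amino acid transporters -1.01, where SP2509 gave -1.10 and -0.95. Enzymes of serine, one-carbon and asparagine synthesis had -0.90 and aminoacyl-tRNA synthetases -0.50, where SP2509 gave -0.74 and -0.86. CYR61 was at 30.5 FPKM with UNC0642, KRT17 at 806, SOX2 at 4.94 and PSAT1 at 80.1.

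**Figure D5:**
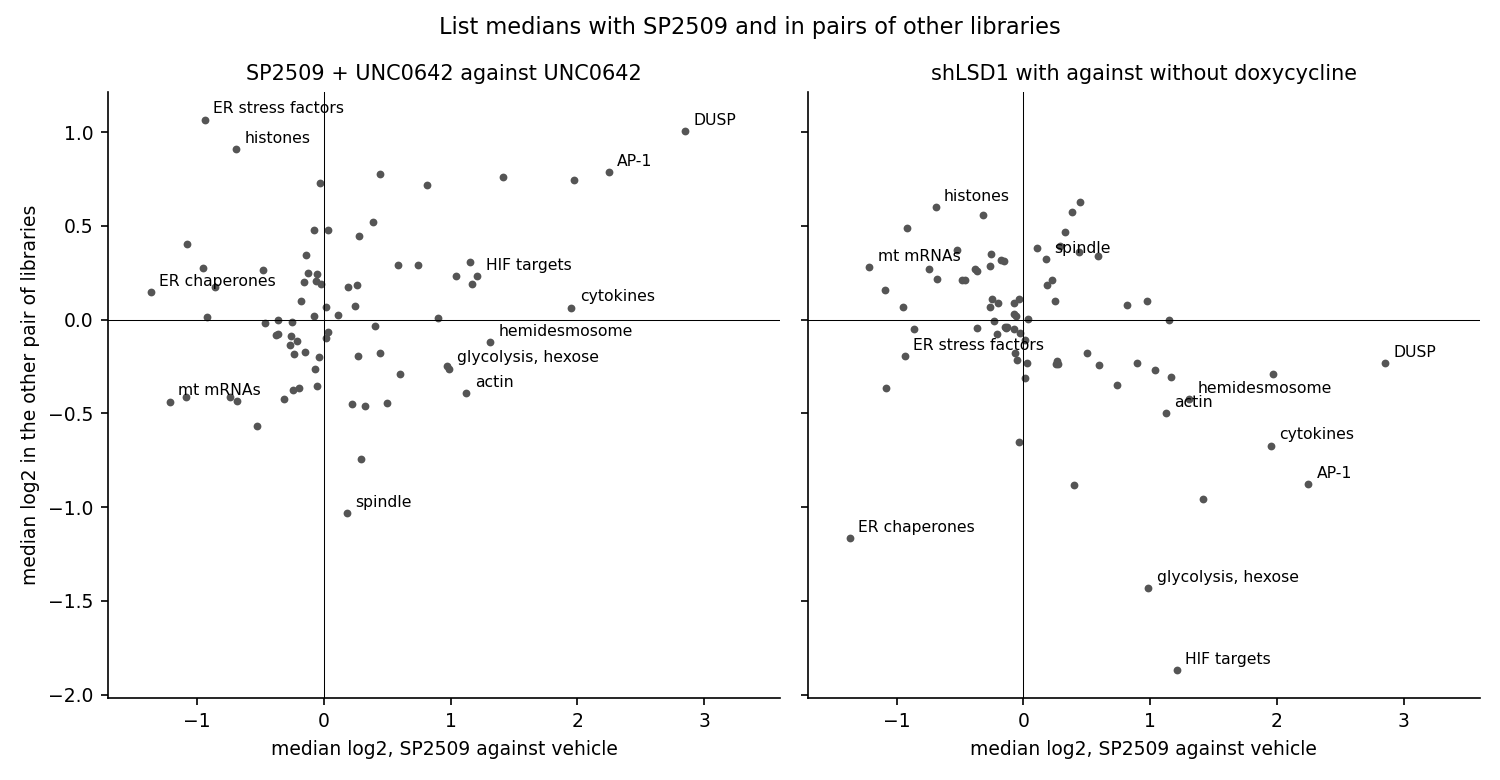
Median centred log2 ratio of 76 gene lists and roles with SP2509 against vehicle (x axis) and in the pair of other libraries (y axis), SP2509 added to UNC0642 at left and the shLSD1 line with against without doxycycline at right. Phosphatase and AP-1 lists lie above 0 at left (1.01 and 0.79) and below it at right (-0.23 and -0.88), and HIF targets lie lowest at right (-1.87).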

How the data were processed

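The series holds 8 RNA-seq libraries of Kyse510, 1 for each condition named in the sample labels, and the SP2509 and vehicle libraries were compared. The authors mapped reads to the human genome (GRCh38 per the submitters' processing notes, Ensembl release 87 per the methods) and deposited FPKM values, with inhibitor and knockdown libraries in separate tables that were normalized apart. The aligner, the counter and the use of strand are not given in the sources used here. No column of authors' comparisons was used.

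Reads were recovered from the FPKM values by finding, per gene, the length at which all values of a library are whole reads; they made up 99.7% of the vehicle and SP2509 totals. Genes that reached 1 FPKM in either library were compared as log2 of FPKM + 1, from which the median over genes of 5 FPKM or more in both was subtracted. A call needed a fold of at least 1.3 and a 95% Clopper-Pearson interval of the reads that excluded no change. With 1 library per condition there is no test, and intervals cover counting error only. A gene without reads was set against a floor of 3 reads in that library.

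The rule for genes, the 53 gene lists and the 6 lists added later were chosen with earlier results of these data known. Named were the 12 protein-coding genes with the largest centred ratios in each direction with at least 5 FPKM in the higher library, outside the ER stress genes; the 3 largest in each direction among other genes with at least 50 reads; the KDM1A complex; and, per list, up to 4 called members in each direction and members whose role is described. A few genes outside this rule and the promoters printed were chosen after their values were seen. So were the lists on actin, splicing, prostaglandins, zinc finger genes, cytosolic ribosomal proteins and mitochondrial ribosomal proteins.

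Motifs were searched on both strands of RefSeq promoters of GRCh38.p14. Besides those reported, HRE (ACGTG), ARE (TGACNNNGC), SRE (TCACNCCAC), MRE (TGCGCNC), E-box (CACGTG) and E2F (TTTCCCGC) were searched. Alternatives were no centring, TMM scaling, centring on all genes, a pseudocount of 0.1 FPKM, no minimum, a minimum of 5 FPKM, protein-coding genes only, the fewest matching reads and fold alone, and, chosen after the data were seen, a fold of 2 and the removal of the mitochondrial genome. Some genes of these lists are not reported here. The procedure was tested on simulated data with counting error only and few changed genes. That setting cannot show whether the centring suits these libraries, where many genes were called. Python 3.11.15, numpy 2.4.6, pandas 2.3.3, scipy 1.17.1 and matplotlib 3.10.9 were used, with GENCODE release 44 for gene lengths.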

Additional observations from a re-analysis of the deposited data

Results flagged for a closer look

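Some groups of 8 or more genes tested in both pairs had a median past 1.3-fold in one direction with SP2509 against vehicle and in the opposite direction in a pair of other libraries. The difference between the pairs was not tested, and each pair has 1 library a side. Medians are centred log2 ratios.

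When SP2509 was added to UNC0642, sensors and factors of the ER stress response had a median of 1.07, where SP2509 alone gave -0.94. ER-associated degradation genes had 0.40 where SP2509 alone gave -1.08, and replication-dependent histones had 0.91 over the 16 tested in both, where SP2509 alone gave -0.68. Desmosome genes had -0.44 against 0.50, and actin filament genes -0.39 against 1.12.

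With doxycycline in the shLSD1 line, where silencing and doxycycline cannot be told apart, HIF targets had a median of -1.87 where SP2509 gave 1.21. Hexose steps of glycolysis had -1.43 where SP2509 gave 0.99, and the triose steps -0.88 where SP2509 gave 0.40. AP-1 subunits had -0.88 against 2.25, proteases and inhibitors -0.95 against 1.47, cytokines -0.67 against 1.75 (13 genes tested in both), hemidesmosome and laminin genes -0.42 against 1.31, and actin filament genes -0.50 against 1.12. Glutathione genes of the NRF2 list had 0.49 against -0.92, and replication-dependent histones 0.60 against -0.70.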

How the results depend on the processing

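No paired analysis was possible because each condition has 1 library, and for the same reason no library could be left out. With a fold of at least 2, 1064 genes were higher and 1268 lower. At a minimum of 5 FPKM the counts were 1887 higher and 2431 lower, or 706 and 763 at 2-fold. The 1268 genes at least 2-fold lower became 829 with TMM scaling, which left 12 lists past the fold on the lower side, and 2288 with a pseudocount of 0.1 FPKM. Of the genes at least 2-fold lower with SP2509, those higher on silencing of LSD1 (400) numbered 652 with no centring, 258 with TMM scaling, 763 with the smaller pseudocount and 253 at the higher minimum. Those lower on silencing (70) numbered 139 with the smaller pseudocount, and those at least 2-fold higher that were higher on silencing (66) numbered 109 with it and 41 at the higher minimum. In the pair with UNC0642, those lower again (441) numbered 787 with the smaller pseudocount and 228 at the higher minimum, and those in the opposite direction (209) numbered 412 with the smaller pseudocount. At 5 FPKM the medians of the EGF receptors (0.26, from -0.49) and of the LXR targets of cholesterol efflux (0.89, from -0.45) turned, with fewer genes tested. The other 104 counts of this kind stayed within 1.5 times. Low counts limit genes near 1 FPKM. The log2 ratios of 24 named genes moved by at least their counting half-width with the smaller pseudocount, and 6 did not. With TMM scaling 17 moved and 13 did not. No named gene turned sign. Of the list medians, 89 moved with TMM scaling by at least the median half-width of their members, and 8 did not.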

Other observations

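A few gene groups stood apart in only some libraries. Spindle, kinetochore and exit genes had a median centred log2 ratio of 0.18 with SP2509 alone and -1.03 when SP2509 was added to UNC0642. The ER chaperones had -1.37 with SP2509, -1.17 with doxycycline in the shLSD1 line and 0.14 when SP2509 was added to UNC0642. Polyamine genes were mixed with SP2509: SAT1, which acetylates spermidine and spermine for export, stood at 73.3 FPKM with vehicle and 289 with SP2509 (log2 2.06), and the spermidine synthase SRM at 36.1 and 11.3 (-1.50). TSC22D3, a glucocorticoid target, stood at 11.8 and 2.23 FPKM (-1.89), while PER1, another, stood at 4.05 and 17.4 (1.96). The DNA repair enzyme PARP1 stood at 49.8 and 12.2 FPKM (-1.85).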
